A study of Homo sapiens with 30 samples.

Results

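LARP6 is an RNA-binding protein whose folded RNA-binding part, the La-module, is flanked by long disordered regions. The 5 mRNAs TXLNA, TSPAN3, IL6ST, PRNP and HIPK1 were selected on these data because they took a larger share of the crosslinking signal after 1 of these regions had been deleted. TXLNA and TSPAN3 were chosen by their score share after deletion of the N-terminal region, and IL6ST, PRNP and HIPK1 by theirs after deletion of the C-terminal region. They are 5 of 7616 genes with at least 1 peak in any of the 5 deposited peak lists. Because the score shares chose the genes, they are given below as a description and without a test.

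The cells were U-87 MG, an established human glioblastoma line that also makes its own LARP6. Myc-tagged LARP6 was expressed from a doxycycline-inducible lentiviral vector in cells selected with puromycin, and the tag allowed the introduced protein to be immunoprecipitated. Besides the full-length protein (FL), 4 deletions were made, of the N-terminal region (ΔNTR), the C-terminal region (ΔCTR), the La-module (ΔLa-module) and the whole N-terminal domain (ΔNTD), which takes away the N-terminal region and the La-module together. Per the labels, all cells received doxycycline at 60 ng/mL for 24 h, the parental cells without a variant included. iCLIP, which maps the positions where ultraviolet light crosslinks a protein to RNA, was run on 3 samples per variant and 3 parental samples. The deposited lists hold 1 set of peaks per variant, pooled over the 3 samples, and peaks of the parental cells had been removed by the authors. The score of a peak is the authors' summed crosslink count and was at least 3 for every peak. The authors called peaks in each sample with a minimum of 3 counts before summing. A peak with a score below 6 was therefore called in 1 sample only. Total RNA of the 6 lines was sequenced as input, with 1 long-RNA library and 1 small-RNA library per line. No iCLIP or input value has replicates here. Intervals are 95% exact intervals that treat a summed score or a count as a Poisson count, and they cover counting error only. For scores they leave out that whole peaks enter or drop out at the minimum score. They can therefore be too narrow, and no test is read from them.

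The 5 proteins have unrelated roles. TXLNA encodes α-taxilin, a coiled-coil protein that binds syntaxins and takes part in vesicle traffic. TSPAN3 is a tetraspanin, a protein that crosses the membrane several times and organises other membrane proteins. IL6ST encodes gp130, the signalling receptor shared by the interleukin-6 family of cytokines. PRNP encodes the prion protein, a glycoprotein anchored at the cell surface. HIPK1 is a nuclear serine/threonine kinase. The 3'UTR of an mRNA, the stretch after the stop codon, is where proteins that govern stability, translation and localisation of an mRNA commonly bind.

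Positions are in GRCh38, with genes from GENCODE. TXLNA (ENSG00000084652) lies on the plus strand at chr1:32179675-32198285, TSPAN3 (ENSG00000140391) on the minus strand at chr15:77041404-77083984, IL6ST (ENSG00000134352) on the minus strand at chr5:55935095-55995022, PRNP (ENSG00000171867) on the plus strand at chr20:4686350-4701590 and HIPK1 (ENSG00000163349) on the plus strand at chr1:113929324-113977869. Their canonical 3'UTRs, counted with the stop codon, measure 3093 nt in TXLNA, 5434 nt in TSPAN3, 5990 nt in IL6ST, 1609 nt in PRNP and 4360 nt in HIPK1. Each of these 3'UTRs is a single exon. The centre of every peak in the 5 genes lay in 1 gene only.

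The sequences at the highest peaks are shown because the score of each gene was highest there. Each is the 29 nt of the genome around the peak centre, read 5′ to 3′ on the strand of the gene, and capitals mark runs of at least 5 consecutive C or T. All 9 peaks lie in the 3'UTR.
TXLNA, highest peak of any list, ΔCTR, chr1:32196701-32196736, plus strand: tgCTTCTTgctgTTTTTCTTTgaagctag
TXLNA, highest ΔNTR peak, chr1:32197433-32197468, plus strand: atccatgtctagaCCTTCaggccagtctg
TSPAN3, highest peak of any list, ΔCTR, chr15:77046233-77046252, minus strand: aaactagtggTTTTTaatcaaagttggct
TSPAN3, highest ΔNTR peak, chr15:77046629-77046666, minus strand: CTTTTTCCTTgttctagctgaCTCTTCat
IL6ST, highest peak of any list, ΔCTR, chr5:55938677-55938726, minus strand: ataatctatgtgttgatgcatgtaaattg
PRNP, highest peak of any list, ΔCTR, chr20:4701260-4701333, plus strand: attgcataggacagacttaggagttttgt
PRNP, highest ΔCTR peak without an FL peak, chr20:4701196-4701231, plus strand: atgtattaCTTTTCTgcaatgttattatt
HIPK1, highest peak of any list, ΔCTR, chr1:113974192-113974233, plus strand: aagtagtgtttaaaaggcagctcaccatt
HIPK1, highest ΔCTR peak without an FL peak, chr1:113974405-113974444, plus strand: tattatatgcaaaaTCTCTgtctattatg

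Pyrimidine runs of this length were present at both TXLNA and both TSPAN3 peaks shown, at the second PRNP and second HIPK1 peaks, and absent from the highest peaks of IL6ST, PRNP and HIPK1. Such a run occurred in 58.9% of all 8550 3'UTR peaks of the ΔNTR list and in 56.1% of the 8067 of the ΔCTR list, in windows of the same length. In the 5 genes it occurred in 19 of 39 3'UTR peaks of ΔNTR (48.7%) and in 20 of 36 of ΔCTR (55.6%), close to or below the share over all 3'UTR peaks. Over the central 31 nt, pyrimidines were 77.4% of bases at the highest ΔNTR peak of TSPAN3, more than at 95.3% of 3'UTR peaks of that list. They made up 71.0% at the highest TXLNA peak, more than at 91.1% of the 3'UTR peaks of ΔCTR. At the highest peaks of TSPAN3, IL6ST and PRNP, all in ΔCTR, the share was 48.4%, above 27.5% of the 3'UTR peaks of that list, and at that of HIPK1 it was 45.2%, above 19.6%. The second peaks of PRNP and HIPK1 had 64.5% and 58.1%, above 79.1% and 60.5%. In ΔNTR, the highest TXLNA peak had 61.3%, above 66.2% of 3'UTR peaks, and the highest one without an FL peak had 32.3%, above 2.97%, and no such run. TXLNA, TSPAN3, PRNP and HIPK1 thus each had a peak above and a peak below the middle of its list. Over all 3'UTR peaks of the 5 genes, the median C and T share was 54.8% in FL (16 peaks) and 51.6% in both ΔNTR and ΔCTR, against a median of 54.8% over all 3'UTR peaks in each of the 3 lists.

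The first question was how much signal each mRNA had with each variant. TXLNA held 3 peaks with a summed score of 10 in FL, 16 peaks with a score of 57 in ΔNTR and 8 peaks with a score of 33 in ΔCTR. TSPAN3 held 3 peaks with a score of 9 in FL, 10 peaks with a score of 41 in ΔNTR and 7 peaks with a score of 30 in ΔCTR. Both genes chosen by ΔNTR were thus highest in ΔNTR, intermediate in ΔCTR and lowest in FL.

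IL6ST held 5 peaks with a summed score of 18 in FL, 11 with 36 in ΔNTR and 14 with 65 in ΔCTR. PRNP held 2 peaks with 10 in FL, 7 with 31 in ΔNTR and 10 with 66 in ΔCTR. HIPK1 held 8 peaks with 25 in FL, 5 with 24 in ΔNTR and 7 with 63 in ΔCTR. IL6ST and PRNP were lowest in FL, intermediate in ΔNTR and highest in ΔCTR. HIPK1, in contrast, had about the same score in FL and ΔNTR and more score per peak in ΔCTR. In ΔLa-module only IL6ST had a peak, 1 of score 3 in the coding sequence, and in ΔNTD none of the 5 genes had any. Those lists are short, with summed scores of 2320 and 999, and hold no peak below 3, so weaker signal there could not be seen.

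The lists differ in total signal, and a score was therefore read as a share of its list's summed score, which came to 102788 for FL, 92958 for ΔNTR and 118751 for ΔCTR. TXLNA took 0.973 of every 10000 score units in FL (0.467 to 1.79). With ΔNTR it took 6.13 (4.64 to 7.94) and with ΔCTR 2.78 (1.91 to 3.90). TSPAN3 took 0.876 (0.400 to 1.66), 4.41 (3.17 to 5.98) and 2.53 (1.70 to 3.61) in the same order. Since these shares chose both genes, nothing is read from the distance between ΔNTR and FL.

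The share of IL6ST was 1.75 per 10000 in FL (1.04 to 2.77), then 3.87 (2.71 to 5.36) and 5.47 (4.22 to 6.98) with ΔNTR and ΔCTR. That of PRNP was 0.973 (0.467 to 1.79), 3.33 (2.27 to 4.73) and 5.56 (4.30 to 7.07). That of HIPK1 was 2.43 (1.57 to 3.59), 2.58 (1.65 to 3.84) and 5.31 (4.08 to 6.79). The ΔCTR and FL shares of these 3 genes chose them, so their distance is a description only. For HIPK1 the FL and ΔNTR intervals covered each other almost wholly.

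**Figure D1:**
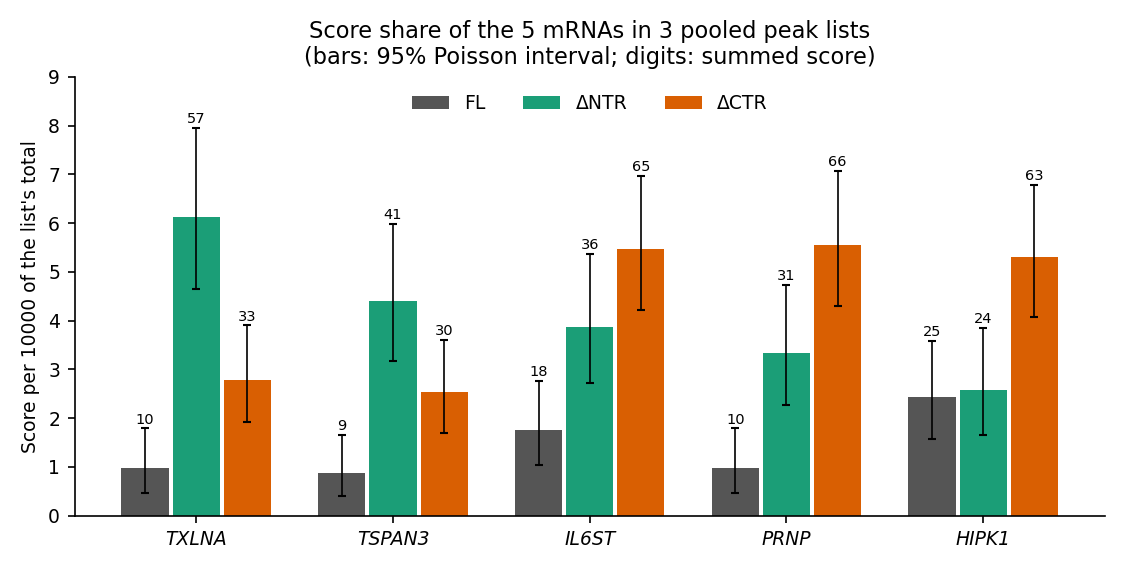
Score share of each of the 5 mRNAs (x axis) in the FL, ΔNTR and ΔCTR peak lists, as summed score per 10000 of the list's total (y axis), with 95% Poisson intervals of the summed score and the score itself in digits. TXLNA and TSPAN3 are highest in ΔNTR, and IL6ST, PRNP and HIPK1 in ΔCTR, with FL scores of 9 to 25.

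As a ratio of shares to FL, in the contrast that chose each gene, TXLNA was 6.30-fold higher in ΔNTR (3.19 to 13.8) and TSPAN3 5.04-fold (2.41 to 11.8). In ΔCTR, PRNP was 5.71-fold higher (2.92 to 12.5), IL6ST 3.13-fold (1.83 to 5.60) and HIPK1 2.18-fold (1.35 to 3.62). The intervals are wide because the FL scores are small. On a log2 scale, with a pseudocount of 1 on the score and the change of the input level taken off, the changes were 2.46 for TXLNA and 2.29 for TSPAN3 in ΔNTR, and 2.30 for PRNP, 1.51 for IL6ST and 1.04 for HIPK1 in ΔCTR. HIPK1 was at the edge of 2-fold. Its change in ΔCTR was 0.98 from 3'UTR peaks alone and 0.92 with a pseudocount of 5, but 2.54 with the small-RNA library as input and 3.31 from peaks of score above 3.

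Genes were ranked by this change where the FL and deletion scores summed to at least 50. Of 803 ranked genes in ΔNTR, 61 (7.6%) had an at least 2-fold higher share, and of 905 ranked genes in ΔCTR, 50 (5.52%) did. Since the rule used these contrasts, nothing is read from the fact that all 5 genes were among them. TXLNA was 1st and TSPAN3 2nd in ΔNTR, and PRNP was 1st, IL6ST 13th and HIPK1 47th in ΔCTR. The next gene after TSPAN3 was MICAL2, with a log2 change of 1.99, and the next after PRNP was TSN, with 2.10. Places depended on the minimum. With a minimum of 20, TXLNA was 27th and TSPAN3 32nd of 1764 genes in ΔNTR, and PRNP was 34th, IL6ST 105th and HIPK1 210th of 1928 genes in ΔCTR. With a minimum of 100, none of the 5 genes had enough score to be ranked.

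The ranking favours genes with little FL signal. A gene with an FL score under 20 could pass the minimum of 50 only through a higher score in the deletion, and 24 of 31 such genes in ΔNTR (77.4%) and 35 of 53 in ΔCTR (66.0%) were at least 2-fold higher. Among genes that scored 50 or more in FL the numbers were 4 of 453 (0.883%) and 3 of 453 (0.662%). TXLNA, TSPAN3, IL6ST and PRNP had FL scores under 20, and HIPK1 lay in the range of 20 to 49, where 12 of 399 genes (3.01%) in ΔCTR were at least 2-fold higher. TSPAN3 passed the minimum with a sum of exactly 50. The median FL score of ranked genes was 56 in ΔNTR and 50 in ΔCTR, above that of each of the 5 genes.

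**Figure D2:**
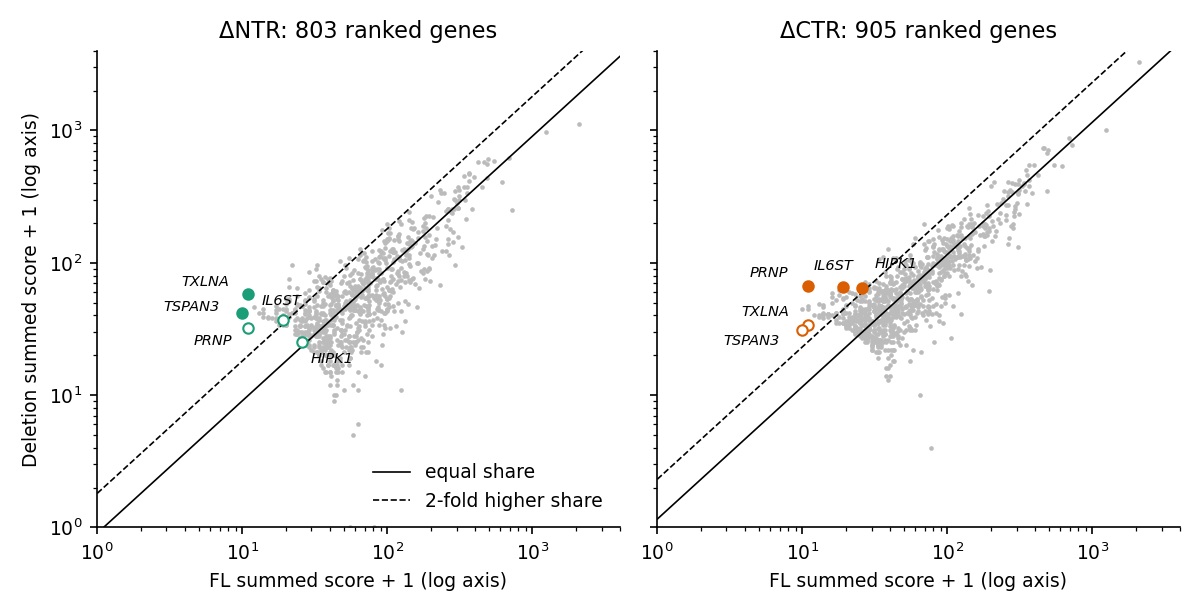
Summed score in FL (x axis) against summed score in ΔNTR (left) or ΔCTR (right, y axis) for the ranked genes, in grey, both plus 1 on log axes, with lines at an equal share and at a 2-fold higher share. Filled circles are genes shown in the contrast that chose them and open circles those of the 5 chosen by the other contrast, ranked or not; PRNP, TXLNA and TSPAN3 sit at the left edge, at FL scores of 9 or 10.

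The other deletion was not used to choose a gene, but it shares the FL list and is therefore not an independent comparison. Against FL, the share of TXLNA was 2.86-fold higher in ΔCTR (1.38 to 6.50) and that of TSPAN3 2.89-fold (1.34 to 6.91). In ΔNTR, the share of PRNP was 3.43-fold higher (1.64 to 7.84), that of IL6ST 2.21-fold (1.22 to 4.14) and that of HIPK1 1.06-fold (0.580 to 1.94). Only IL6ST reached the summed score of 50 in this second contrast, where it was 37th of 803 with a log2 change of 1.18 after input. The interval of HIPK1 included an equal share. The FL scores that helped to choose the genes enter each of these ratios, so nothing is read from which intervals did so.

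The deletions can be set against each other without FL. The share in ΔNTR over that in ΔCTR was 2.21 for TXLNA (1.41 to 3.50) and 1.75 for TSPAN3 (1.06 to 2.90). It was 0.708 for IL6ST (0.457 to 1.08), 0.600 for PRNP (0.378 to 0.933) and 0.487 for HIPK1 (0.291 to 0.790). Each gene was chosen for a high share in 1 of the deletions, so these ratios are a description and no test of a difference between the deletions.

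The next question was where on the mRNA the signal lay. In FL, 10 of 10 score units of TXLNA lay in the 3'UTR, 3 of 9 of TSPAN3, 9 of 18 of IL6ST, 10 of 10 of PRNP and 21 of 25 of HIPK1. The 3'UTR score of TXLNA was 54 in ΔNTR and 33 in ΔCTR, that of TSPAN3 32 and 20, that of IL6ST 26 and 45 and that of PRNP 31 and 66. The 3'UTR score of these 4 mRNAs was above its FL value in both deletions. HIPK1 differed, with 3'UTR scores of 21, 13 and 51 in FL, ΔNTR and ΔCTR.

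Signal outside the 3'UTR differed between the genes. TSPAN3 had coding-sequence scores of 6, 6 and 10 in FL, ΔNTR and ΔCTR, respectively. In addition, 1 ΔNTR peak of score 3 was centred in a 5'UTR, where it overlapped an FL peak centred in the coding sequence. One of the ΔCTR coding peaks of TSPAN3 was centred 1 nt before the end of the coding sequence. IL6ST had 9, 10 and 20 in the coding sequence in FL, ΔNTR and ΔCTR, HIPK1 had 4, 11 and 12, and PRNP had none. TXLNA had 1 peak outside the 3'UTR, in the 5'UTR, of score 3 in ΔNTR. The coding scores of IL6ST and HIPK1 were thus also higher in ΔCTR than in FL, so the difference was not confined to the 3'UTR in these genes.

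Position within the 3'UTR differed between the mRNAs. Merging overlapping peaks of FL, ΔNTR and ΔCTR gave 21 3'UTR sites in TXLNA, spread from 107 to 2645 nt after the coding sequence. In TSPAN3 all 10 3'UTR sites lay in the first 770 nt of the 5434 nt 3'UTR, and the remaining stretch held no peak in any list. IL6ST had 17 sites from 211 to 4212 nt, PRNP 12 from 186 to 1521 nt, close to the transcript end, and HIPK1 9 from 532 to 3857 nt. In HIPK1 the 3 farthest sites, at 1978, 2593 and 3857 nt, were found in FL and in neither deletion.

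**Figure D3:**
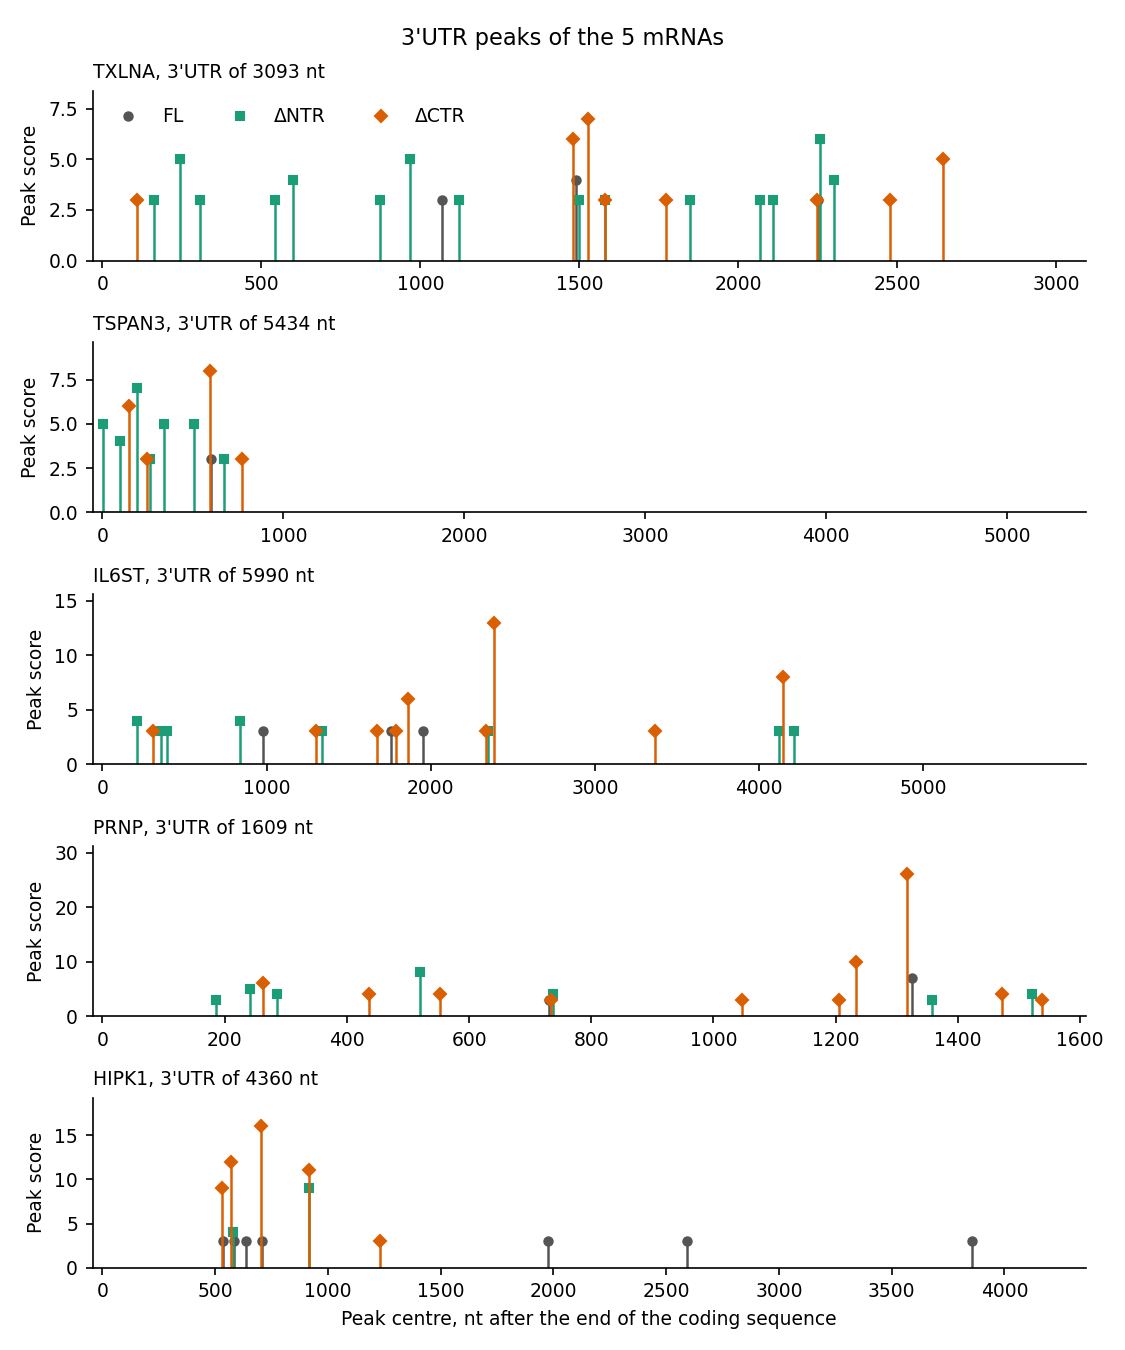
Score of each 3'UTR peak (y axis, scale set per gene) against its distance from the end of the coding sequence in nt (x axis, drawn to the full length of the canonical 3'UTR) for FL, ΔNTR and ΔCTR. TXLNA shows many ΔNTR peaks of 3 to 6 over most of the 3'UTR, TSPAN3 peaks stay within 770 nt, and IL6ST, PRNP and HIPK1 each have a tall ΔCTR peak, of 13, 26 and 16.

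The signal of TXLNA in ΔNTR was spread thinly. Of its 16 peaks, 11 had the minimum score of 3. All but the highest peak scored below 6 and were thus called in 1 sample only. The highest, of 6, held 10.5% of the gene's score. In TSPAN3 the highest ΔNTR peak, of 7, held 17.1%. Over 801 ranked genes with ΔNTR signal, the highest peak held a median of 27.9%, and 4.00% of genes had a lower share than TXLNA and 21.8% a lower share than TSPAN3. Peaks covered 2.33% of the TXLNA 3'UTR in FL, 13.6% in ΔNTR and 6.01% in ΔCTR, with a mean score per peak of 3.33, 3.56 and 4.13. The higher score of TXLNA in ΔNTR thus came with more listed peaks and with nearly the same score per peak. Most of its peaks in FL and in ΔNTR were at the minimum score, so these means could differ little. Weaker FL signal at the same positions could not be seen.

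In the genes chosen by ΔCTR, the highest peak held 39.4% of the ΔCTR score in PRNP, 25.4% in HIPK1 and 20.0% in IL6ST, against a median of 41.5% over the 905 ranked genes. Of those genes, 46.2% had a lower share than PRNP, 21.2% a lower share than HIPK1 and 11.0% a lower share than IL6ST, so none of the 5 genes lay above the median of its list. The genes were chosen for low FL shares, and most 3'UTR peaks of at least 10 in either deletion overlapped an FL peak. This bears on the places in both contrasts, which are a description and not a trait of these mRNAs. In HIPK1 the mean score per peak was 3.13 in FL and 9.00 in ΔCTR, while the number of peaks was 8 and 7. In PRNP the means were 5.00 and 6.60 with 2 and 10 peaks, and in IL6ST 3.60 and 4.64 with 5 and 14 peaks. HIPK1 was therefore the gene in which stronger peaks, not more of them, made up the higher score.

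The site of the highest peak was read in all lists. The PRNP peak at chr20:4701260-4701333, 292 nt before the transcript end, had a score of 26 in ΔCTR and overlapped peaks of 7 in FL and 3 in ΔNTR. The HIPK1 peak at chr1:113974192-113974233, 703 nt after the coding sequence, had 16 in ΔCTR and 3 in FL, and no ΔNTR peak overlapped it. The IL6ST peak at chr5:55938677-55938726 had 13 in ΔCTR and 3 in ΔNTR, and no FL peak overlapped it. These overlaps depended on their definition. When at least 50% of both peaks had to be shared, no FL or ΔNTR peak counted at the PRNP site and no ΔNTR peak at the IL6ST site. The FL score of 3 at the HIPK1 site stood. The FL peak of PRNP, 25 nt wide, lay wholly inside the ΔCTR peak of 74 nt and missed the 50% by width alone.

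The neighbouring sites differed between lists. At PRNP, chr20:4701196-4701231 had a score of 10 in ΔCTR and no overlapping peak in FL or ΔNTR. At HIPK1, chr1:113974405-113974444 had 11 in ΔCTR and 9 in ΔNTR, and none in FL. The latter was also the highest peak of HIPK1 in ΔNTR. The HIPK1 sites at 532, 570 and 703 nt after the coding sequence each had 3 in FL and 9, 12 and 16 in ΔCTR, and 1 of them, at 570 nt, had a ΔNTR peak, of 4. A further site between them, at 637 nt, had 3 in FL and no peak in either deletion. Within this stretch of the HIPK1 3'UTR, FL peaks were at the minimum score and the ΔCTR peaks had scores of 9 to 16.

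By the same measure, the highest peak of TXLNA was in ΔCTR, with a score of 7, and no peak of FL or ΔNTR overlapped it. Summed over peaks centred within 50 nt, that stretch had scores of 4, 3 and 13 in FL, ΔNTR and ΔCTR. The highest ΔNTR peak of TXLNA, of 6, overlapped peaks of 3 in FL and in ΔCTR. The highest TSPAN3 peak was also in ΔCTR, with 8, over an FL peak of 3 and with none in ΔNTR. The highest ΔNTR peak of TSPAN3, of 7, overlapped no peak of FL or ΔCTR. Within 50 nt of its centre, however, ΔCTR had a score of 6 and FL had 0. In TXLNA and TSPAN3 the highest peak of any list thus came from ΔCTR, and its site cannot show where their ΔNTR score lay.

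The overlap with FL peaks was then counted for all peaks. In ΔNTR, 2 of 16 TXLNA peaks overlapped an FL peak, with a score of 9 of 57, a further 4 peaks with a score of 15 lay within 100 nt of one, and 10 with a score of 33 lay farther away. Of 10 TSPAN3 peaks, 2 with a score of 6 of 41 overlapped, 2 with 8 were within 100 nt and 6 with 27 lay farther away. Overlapping peaks thus held 15.8% of the ΔNTR score of TXLNA and 14.6% of that of TSPAN3, against a median of 60.9% over 801 ranked genes. A small number of FL peaks leaves few positions to overlap, and both genes had 3.

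In ΔCTR, overlapping peaks held 68.3% of the score of HIPK1 (43 of 63), 43.9% of that of PRNP (29 of 66) and 15.4% of that of IL6ST (10 of 65), against a median of 78.9% over 905 ranked genes. A score of 40 of the 65 of IL6ST lay farther than 100 nt from any FL peak. Most of the ΔCTR score of HIPK1 thus lay at positions also listed for FL, a smaller part of that of PRNP and a still smaller part of that of IL6ST. In ΔNTR no IL6ST peak, of 11, lay within 100 nt of an FL peak.

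Weak peaks overlapped less in general. Over all 3'UTR peaks of ΔNTR, 16.4% of those of score 3 and 40.6% of those of 4 to 9 overlapped an FL peak, against 91.0% of those of at least 10. In the 5 genes the ΔNTR numbers were 2 of 20 (10.0%) at score 3 and 3 of 19 (15.8%) at 4 to 9, and no ΔNTR peak reached 10. In ΔCTR, 2 of 18 (11.1%), 3 of 12 (25.0%) and 3 of 6 (50.0%) overlapped, against 16.6%, 39.1% and 90.1% over all 3'UTR peaks of the list. The genes were chosen for low FL shares, which bears on these counts.

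Of 85 merged sites in the 5 genes, 64 (75.3%) had no FL peak. Over the 1205 genes with a summed score of 50 or more in these lists, 55.5% of 17694 sites had none. By gene, the share of sites without an FL peak was 86.4% in TXLNA, 80.0% in TSPAN3, 78.3% in IL6ST and 83.3% in PRNP, but 38.5% in HIPK1, and low FL scores chose the genes. Of the 64 sites, 30 were found in ΔNTR alone, 24 in ΔCTR alone and 10 in both deletions. Of the 21 sites with an FL peak, 9 were in FL alone and 5 in all 3 lists. TXLNA had 2 sites in all 3 lists, PRNP 2 and HIPK1 1. In TXLNA 13 of 22 sites were found in ΔNTR alone, and ΔNTR and ΔCTR shared 1 site that FL did not have.

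The abundance of the mRNAs was read in the long-RNA input, with counts divided by library size and TMM factors (CPM). TXLNA was at 205 CPM in the parental line, 192 in the FL line and 203, 207, 192 and 191 in the lines with ΔNTR, ΔCTR, ΔLa-module and ΔNTD. TSPAN3 was at 160, 161, 152, 156, 161 and 172 CPM in the same order. HIPK1 was at 182, 171, 165, 177, 163 and 174. These 3 mRNAs stayed within 0.16 of parental cells on the log2(CPM + 1) scale.

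IL6ST was at 329 CPM in the parental line and 385, 367, 405, 390 and 428 CPM in the other lines, in the same order. The 5 lines with a variant were all above parental cells, by 0.16 to 0.38 on the log2 scale, and the counting intervals of the ratio to parental cells lay above 1. Such intervals also excluded 1 in some lines for each of the other mRNAs, and no test is read from them. PRNP was at 167 CPM in the parental line and 141, 135, 151, 139 and 143 CPM in the others, all below the parental line, by 0.14 to 0.31. Counted without regard to strand, IL6ST had 7572 to 10125 counts per library, against 8810 to 11780 on its own strand. With 1 library per line, a difference between lines cannot be told apart from a difference between cultures.

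None of the 5 mRNAs reached a 2-fold change in any line. In the background, 0.0436% of genes with at least 10 counts changed at least 2-fold in either direction when the FL line was set against the parental line. The same share was 0.593% for the ΔNTR line and 0.06%, 0.312% and 0.257% for the ΔCTR, ΔLa-module and ΔNTD lines. Between the deletion and FL, the input moved by 0.08 for TXLNA and −0.08 for TSPAN3 in ΔNTR, and by 0.07 for IL6ST, 0.10 for PRNP and 0.05 for HIPK1 in ΔCTR, all on the log2(CPM + 1) scale. The score share changes of 1.04 to 2.46 already have this input change taken off. Whether abundance bears on the scores was not tested. In the small-RNA libraries the 5 genes had only 1 to 22 counts.

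**Figure D4:**
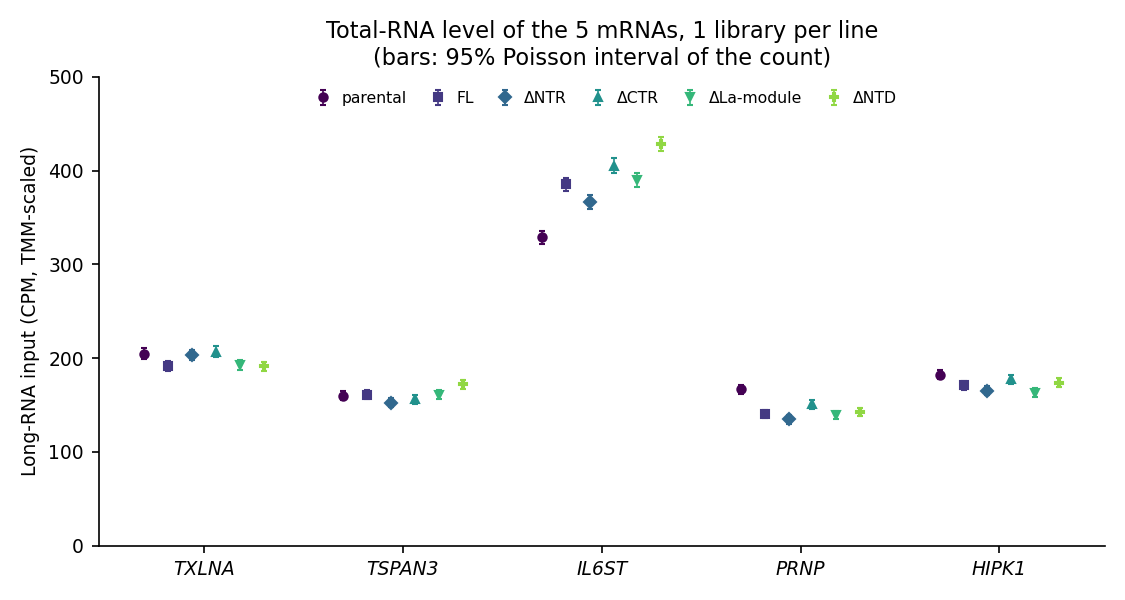
Long-RNA input level in CPM (y axis) of the 5 mRNAs in 6 lines, 1 library each, with 95% Poisson intervals of the count. IL6ST is lowest in parental cells at 329 CPM and PRNP highest there at 167 CPM, and the other 3 mRNAs differ little between lines.

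Per gene length, the long-RNA level was highest for PRNP, at 49.2 to 60.9 CPM per kb of exon over the 6 lines. TXLNA had 37.4 to 40.5, IL6ST 27.3 to 35.5, TSPAN3 18.1 to 20.5 and HIPK1 17.8 to 19.9 CPM per kb. The ranges of TSPAN3 and HIPK1 overlapped, and the others stood apart.

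Score was also set against abundance, as summed score per 1000 long-RNA counts of the same line. TXLNA went from 1.86 in FL to 11.2 in ΔNTR and 5.89 in ΔCTR, and TSPAN3 from 1.99 to 10.8 and 7.10. IL6ST went from 1.66 to 3.93 and 5.92, PRNP from 2.53 to 9.22 and 16.2, and HIPK1 from 5.20 to 5.82 and 13.1. The median over genes with a peak and at least 100 counts was 3.58, 3.93 and 4.13 in FL, ΔNTR and ΔCTR. In FL, 4 of the 5 mRNAs thus lay below the median gene, and HIPK1 above it. In ΔCTR all 5 lay above it, and PRNP was above 90.9% of genes. The scores that chose the genes enter these values, so the places are a description only.

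The genes whose pattern over FL, ΔNTR and ΔCTR was most like that of each mRNA were found by the distance between centred log2 score shares, among 1205 genes whose scores in these lists added up to 50 or more. Closest to TXLNA were TSPAN3 and RPL28, and closest to TSPAN3 were RPL28 and DAG1, with scores of 11, 45 and 29 for RPL28 and 9, 33 and 31 for DAG1 in FL, ΔNTR and ΔCTR. Closest to IL6ST were CANT1 (11, 21 and 38) and TMX3 (15, 28 and 54), to PRNP DDX5 (6, 17 and 43) and TSN (9, 25 and 44), and to HIPK1 IARS2 (16, 15 and 41) and UHMK1 (41, 40 and 108). With 3 lists the measure rests on 3 values per gene.

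Genes related to the 5 by function were read in the same way. Besides IL6ST, 18 genes of gp130 receptors and their signalling were listed. Of these, 1 was ranked in ΔNTR and 4 in ΔCTR, and none was 2-fold higher or lower. The related receptor subunits LIFR and OSMR had log2 changes of −0.42 and −0.16 in ΔCTR, where IL6ST had 1.51. PTPN11, a phosphatase of this pathway, had the most score of the list, 179 in FL, 132 in ΔNTR and 134 in ΔCTR. STAT3, a transcription factor activated through gp130, had a change of −0.19 in ΔCTR.

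Of 22 other tetraspanins, 4 were ranked in each contrast and none of the ranked ones was 2-fold higher. TSPAN5 was 2-fold lower in ΔNTR, with a log2 change of −1.01 and scores of 69 in FL and 34 in ΔNTR. TSPAN4 had −0.87 in ΔNTR, and CD63, found on late endosomes and exosomes, and TSPAN17 had 0.80 and 0.68. CD82, with 20, 24 and 13, and CD151, with 12, 29 and 18, were not ranked. Among ranked tetraspanins, TSPAN3 was the 1 with a 2-fold higher share, in the contrast that chose it. It was ranked only through its high ΔNTR score. CD82 and CD151 also scored higher in ΔNTR than in FL, but no share change was computed for unranked genes. The higher share is therefore not shown to be particular to TSPAN3.

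Of 16 other taxilins and syntaxins, 3 had a peak in FL, with a summed score of 14, and none was ranked in either contrast. Of 11 HIPK kinases and partners, 2 were ranked and none passed 2-fold. HIPK2, a related kinase, had much more score, 224 in FL, 287 in ΔNTR and 214 in ΔCTR, with log2 changes of 0.51 and −0.22. HMGA1, a chromatin protein, had −0.26 and −0.60, and CTBP1, a corepressor, with 22, 24 and 12, was not ranked.

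Of 10 prion family members and partners of the prion protein, 3 were ranked in ΔNTR and 4 in ΔCTR. RPSA, a ribosomal protein also described as a laminin receptor, was 2-fold higher in ΔNTR, with a log2 change of 1.10 and 0.63 in ΔCTR. LRP1, a large endocytic receptor, had −0.16 and 0.24, CAV1, the caveolar coat protein, 0.25 and 0.17, and ADAM10, a protease that sheds the prion protein, −0.02 in ΔCTR. Across the 5 groups, 1 of 10 ranked related genes was thus 2-fold higher in ΔNTR and 0 of 14 in ΔCTR, against the 7.6% and 5.52% of all ranked genes. No related gene changed 2-fold in the long-RNA input of any line.

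The line itself was checked on marker genes. VIM, CD44, FN1, COL1A1, SPARC and NES, genes of mesenchymal and glial cells, ranged from 52.0 CPM for NES to 8004 CPM for VIM, whereas GFAP, the astrocyte filament protein, had 0 to 6 counts. PTPRC of leukocytes had 1 to 2 counts, RBFOX3 of neurons 0 to 4, PECAM1 of endothelium 28 to 65 and EPCAM of epithelium 37 to 67. Long-RNA libraries held 25027075 to 28692476 counts in genes.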

How the data were processed

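iCLIP was performed on 18 samples and total RNA was sequenced in 12 input libraries, and samples were grouped by the labels. The authors demultiplexed the iCLIP reads, discarded those from rRNA and tRNA, aligned the rest to GRCh38 with STAR, removed PCR duplicates with UMI-tools and called peaks per replicate with Clippy. Peaks of 3 replicates were then merged by the authors, who summed the peak score and subtracted parental peaks with bedtools (2.30.0). Scores were deposited unscaled, so the depth of single samples is unknown here. Input reads were trimmed by the authors with Trim Galore (0.6.10), and STAR (2.7.10b) gave the deposited counts per gene.

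Here, peaks were assigned to GENCODE 44 genes by their centre on the same strand, in the order CDS, 5'UTR, 3'UTR, ncRNA, intron. The authors used an earlier GENCODE release. The reverse-strand column was used for long RNA and the forward-strand column for small RNA. Of 62750 gene identifiers, 62625 matched the annotation. Input counts were scaled with edgeR (4.0.16) TMM factors, or DESeq2 (1.42.0) size factors as an alternative, and changes are on the log2(CPM + 1) scale. No model was fitted, since each variant has 1 pooled list and each line 1 library per protocol. Poisson intervals and Clopper-Pearson intervals of ratios were used. The code that computes the share change was checked on simulated scores with known changes, which bears on the code and not on these genes. The 5 genes, their related genes and the comparisons were chosen with earlier results of these data known. Named genes are these 5, for each the 2 genes of most similar pattern, related genes whose scores in FL, ΔNTR and ΔCTR summed to 50 or more, and the gene next in each ranking, which was added after its values were seen. Of these, 1 related gene is not reported here.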

Additional observations from a re-analysis of the deposited data

How the results depend on the processing

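In the contrast that chose each gene, the input-corrected log2 share change kept its sign under all 8 alternatives tried, with ranges of 2.11 to 2.86 for TXLNA, 1.94 to 5.13 for TSPAN3, 1.32 to 2.46 for IL6ST, 1.93 to 2.44 for PRNP and 0.92 to 3.31 for HIPK1. With only peaks of score above 3, the change left its counting interval for TSPAN3 (5.13 in ΔNTR and 4.05 in ΔCTR) and HIPK1 (2.48 in ΔNTR and 3.31 in ΔCTR). No FL peak of TSPAN3 and 1 of 8 of HIPK1 scored above 3. With the small-RNA library as input it was 2.46 for IL6ST and 2.54 for HIPK1 in ΔCTR, and those libraries held 1 to 22 counts of each gene. The change of HIPK1 in ΔNTR, 0.14, was −0.46 from 3'UTR peaks alone. The number of genes with an at least 2-fold higher share followed the minimum summed score, with 246 at 20 and 17 at 100 in ΔNTR and 223 and 8 in ΔCTR. At the highest sites, 26 of 30 scores stayed within their counting interval when overlap was defined differently. The others were PRNP in FL and ΔNTR and IL6ST in ΔNTR, at 0 when 50% of both peaks had to be shared, and TXLNA in FL, at 4 when peaks within 50 nt were summed. All 100 input changes stayed within theirs under other scalings, with the largest at 0.39. No paired analysis was possible because each variant has 1 pooled peak list and each line 1 input library per protocol, so neither carries replicates, and for the same reason none could be left out.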
